A study of Rattus norvegicus with 18 samples.

Results

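Synovium from the knee joint of arthritic rats labelled AIA-cold was compared with synovium from arthritic rats labelled AIA-hot across all measured genes. The members were the 3 arrays whose group label is AIA-cold rats and the 3 arrays whose group label is AIA-hot rats, 6 of the 18 arrays of the series. AIA stands for adjuvant-induced arthritis, a model in which an injected adjuvant sets off an immune arthritis of several joints. All animals were male Lewis rats of 6 to 8 weeks kept at a constant room temperature. The other arrays used here were 3 AIA-cold-WTD, 3 AIA-hot-WTD, 3 AIA and 3 control arrays, where WTD is a Chinese herbal formula that the labels do not spell out. How the cold and hot models differed in handling, which adjuvant was used, and the dose and length of WTD treatment are not given in the sources used here, and neither is which animal gave which array. The p-values therefore measure only the spread between these arrays, which may be partly technical. Cold and hot patterns of arthritis are categories of traditional Chinese medicine, and the comparison asks how the joint tissue of rat models of the cold and hot patterns differs in RNA.

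The synovium is a thin tissue of lining fibroblasts and macrophages over a layer of vessels, fibroblasts and fat. In arthritis it takes up leukocytes and makes cytokines, chemokines and matrix proteases. Interferons, secreted by cells that sense viral or self nucleic acids, act through their receptors to induce antiviral and antigen presentation genes, many of which carry a short promoter element of repeated GAAA. Fat within the joint and the lining fibroblasts also make lipid mediators such as prostaglandins, and fat burns or stores fatty acids depending on feeding, hormones and temperature.

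Each level below is a log2 signal relative to the 75th percentile of its array, so a difference of 1 is a 2-fold change. The 75th percentile of the raw signal was 297.5 to 325.9 on the AIA-cold arrays and 276.6 to 314.1 on the AIA-hot arrays (exact two-sided permutation test, p = 0.7). The share of gene probes well above background was 64.2%, 64.2% and 68.3% on the AIA-cold arrays, against 63.8%, 56.9% and 62.2% on the AIA-hot arrays (exact two-sided permutation test, p = 0.1, the smallest that 3 against 3 arrays allow). All 17 listed synovial lining and fibroblast genes were measured, of which 12 were lower and 5 higher in AIA-cold. Their median difference was -0.340, or -0.135 without AIA-cold replicate 1. The lubricin gene Prg4 of the lining read 6.38, 7.21 and 7.14 on the AIA-cold arrays and 6.88, 7.27 and 7.63 on the AIA-hot arrays. Some arrays stood apart. AIA-hot replicate 3 correlated more closely with AIA-cold replicates 1 and 2 (Pearson's r across genes 0.984 and 0.987) than with AIA-hot replicates 1 and 2 (0.974 and 0.964), so its profile lay nearer to the other label. It was also on another slide, with the 3 AIA-hot-WTD arrays, whereas AIA-hot replicates 1 and 2 shared a slide with 2 AIA arrays. All 3 AIA-cold arrays shared a slide with 1 AIA-cold-WTD array. No slide held both AIA-cold and AIA-hot arrays, so slide and group cannot be told apart. AIA-cold replicate 3 was high in bone RNA: the osteocalcin gene Bglap read 5.60 there, against -2.72 and -2.10 on the other AIA-cold arrays and -1.59, -1.55 and -2.19 on the AIA-hot arrays. Col2a1, the main collagen of cartilage, read 4.54 there, against -0.86 and -0.83 on the other AIA-cold arrays and -1.53, 0.84 and -1.93 on the AIA-hot arrays. Its difference between the groups was 1.83, but another Col2a1 probe gave -0.23. The mean of the 13 measured cartilage genes was -0.442, -0.507 and 0.931 on the AIA-cold arrays and -0.075, 0.475 and -0.956 on the AIA-hot arrays. The cartilage genes were split, with 7 higher and 6 lower in AIA-cold, and Acan and Comp were highest on AIA-hot replicates 1 and 2.

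Across the genome the AIA-cold and AIA-hot synovia differed at few genes beyond the spread between arrays. Of 23607 genes and transcripts tested, 2 rose in AIA-cold and 0 fell at a Benjamini-Hochberg adjusted p under 0.05, a share of 0.00847%. Before adjustment 1278 genes had p under 0.05, where 1180.35 would be the mean number with no change at any gene. Of these, 731 were higher in AIA-cold (3.1% of all tested) and 547 were lower (2.32%). All 3 AIA-cold arrays lay above all 3 AIA-hot arrays at 1869 genes (7.92% of those with values on all 6 arrays) and below them at 1668 (7.07%). The called genes were Zim1 and Alox15b. The number called was 0 without AIA-cold replicate 2, without AIA-hot replicate 1 or without AIA-hot replicate 2. It was 2 without AIA-hot replicate 3, but neither was Zim1 or Alox15b, and it was 0 with the slide as a random block (smallest adjusted p = 0.259). Control replicate 1 enters the shared estimate of spread and was dim, with a 75th percentile of 72.76 and 43.28% of gene probes above background. Without it 5 genes were called, Zim1 and Alox15b among them.

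Zim1, an imprinted zinc finger gene, read -0.33, -0.31 and -1.14 on the AIA-cold arrays, against -2.85, -3.20 and -3.09 on the AIA-hot arrays. Its 60-base probe lies on rat chromosome 1 (rn4, chr1:65555877-65555936, plus strand). Every AIA-cold array was above every AIA-hot array, and the difference was 2.45 ± 0.33 (SE, n = 3 each, limma adjusted p = 0.0408). The other arrays of the series were near the AIA-hot level: AIA-cold-WTD gave -2.68, -2.12 and -3.29, AIA-hot-WTD -2.91, -2.85 and -3.51, AIA -3.11, -2.13 and -2.61, and control -2.67, -3.18 and -3.28. The AIA-cold-WTD array at -2.68 was on the same slide as the 3 AIA-cold arrays.

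Alox15b encodes a lipoxygenase that adds oxygen to arachidonic acid and related fatty acids. All 3 AIA-cold arrays measured it well above background, at -3.21, -1.82 and -1.85, and 0 of 3 AIA-hot arrays did, with signals of -6.03, -5.76 and -6.25. The probe is on chromosome 10 (rn4, chr10:55952102-55952161, minus strand). Because the AIA-hot signals are only bounds, the gene was at least 2.97-fold higher in AIA-cold, with a fitted difference of 3.72 ± 0.51 (SE, n = 3 each, adjusted p = 0.0408) that depends on signals below background. The gene was above background on 0 arrays of the other 5 groups, so it passed the filter on dim probes only through AIA-cold, and with no filter no gene was called. The AIA-cold-WTD arrays read -6.92, -7.27 and -7.58 and the AIA-hot-WTD arrays -5.73, -4.96 and -6.25. Means were -5.71 in AIA and -5.37 in control. Without AIA-hot replicate 3 the difference was 2.43 for Zim1 and 3.60 for Alox15b (adjusted p = 0.0667 for both). Without AIA-cold replicate 3 as well they were 2.70 and 3.38 (adjusted p = 0.0447 and 0.101). With normexp background correction the Alox15b difference was 0.95 and the Zim1 difference 1.38, and no gene was called.

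**Figure D1:**
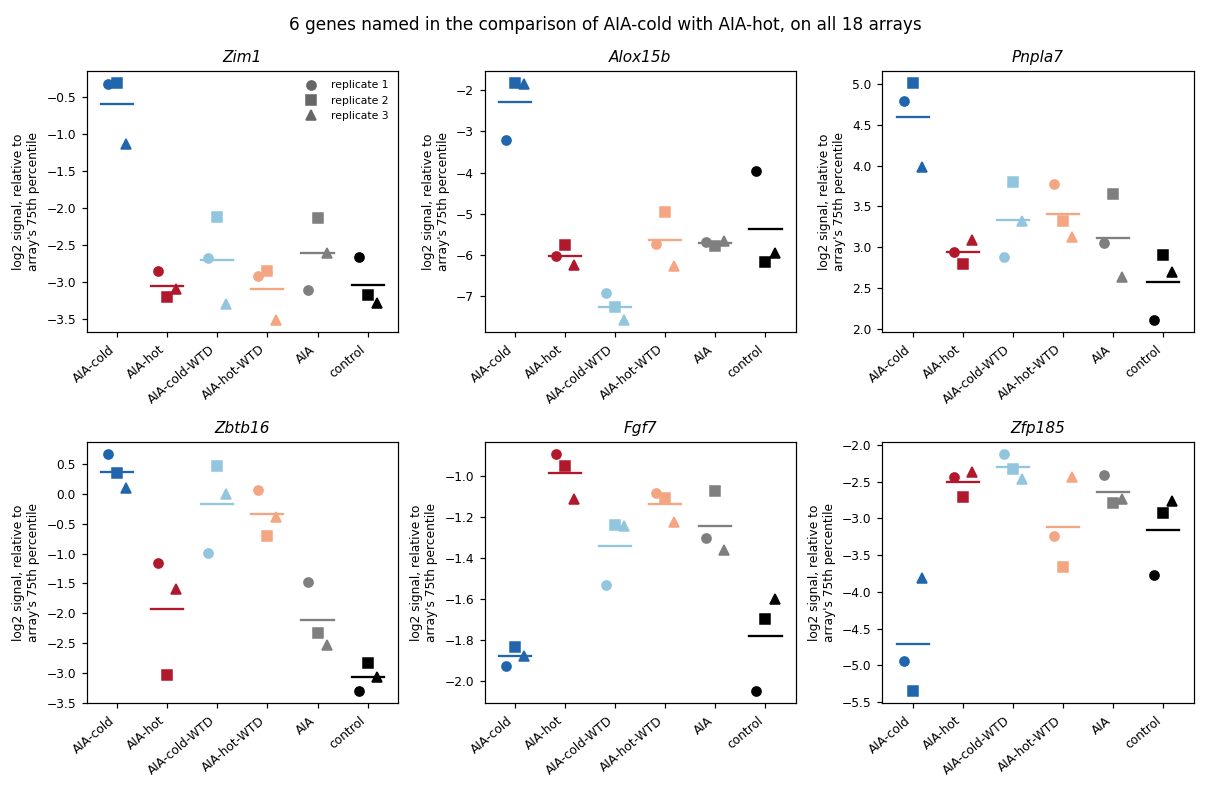
Log2 signal relative to the array's 75th percentile (vertical axes) of 6 genes on the 18 arrays, by group; symbols are arrays and the line is the group mean. Zim1, Alox15b, Pnpla7 and Zbtb16 were higher on every AIA-cold array than on every AIA-hot array, and Fgf7 and Zfp185 were lower, but the test called only Zim1 and Alox15b.

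The 12 higher and 12 lower genes with the smallest p show what lay just outside the threshold. None of the other 22 passed the test. Each had AIA-cold and AIA-hot arrays that did not overlap, as did 7.92% of all genes on the higher side and 7.07% on the lower. The genes were picked by p in this same contrast, so the lack of overlap adds no support. Slc27a2, an acyl-CoA synthetase that takes up very long-chain fatty acids, read -2.61, -2.53 and -2.97 in AIA-cold, against -5.82, -5.86 and -3.36 in AIA-hot (difference 2.31 ± 0.53, adjusted p = 0.433). Only 1 AIA-hot array, replicate 3, had it above background, and the call it gained without that array rests on AIA-hot signals that were not well above background. Pnpla7, a lysophospholipase, read 4.80, 5.02 and 3.99 in AIA-cold and 2.94, 2.79 and 3.09 in AIA-hot (difference 1.66 ± 0.33, adjusted p = 0.313). Gulo, the last enzyme of vitamin C synthesis in rodents, read -0.37, -0.03 and -1.68 in AIA-cold and -3.45, -3.46 and -2.62 in AIA-hot (difference 2.49 ± 0.57, adjusted p = 0.433).

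The other higher genes had differences of 0.79 to 3.34. Smad7, an inhibitor of TGF-beta signalling, read 2.74, 2.81 and 2.39 in AIA-cold and 1.70, 1.96 and 1.91 in AIA-hot (difference 0.79 ± 0.14, adjusted p = 0.229). Gkn3-ps1, a gastrokine pseudogene, had the difference of 3.34 ± 0.75 (adjusted p = 0.433), with AIA-cold arrays at 0.82, 1.17 and -0.35 and AIA-hot arrays at -3.02, -3.82 and -1.55. Ctla2a read 0.91 ± 0.20 higher and Sgsm1 0.79 ± 0.19 higher (adjusted p = 0.404 and 0.45). The odorant receptor gene Or10c1 was above background on 3 AIA-cold and 0 AIA-hot arrays, at least 2.17-fold higher (adjusted p = 0.313). Zbtb16 is described with the glucocorticoid targets.

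Fgf7, a fibroblast growth factor that acts on epithelia, read -1.93, -1.83 and -1.87 on the AIA-cold arrays, against -0.89, -0.95 and -1.11 on the AIA-hot arrays. The spread within each group was small and the difference was -0.89 ± 0.14 (SE, n = 3 each, adjusted p = 0.0995). Fgf7 was called when control replicate 1 was left out of the fit (adjusted p = 0.0252). Its mean was -1.25 in AIA and -1.78 in control. The control arrays read -2.049, -1.695 and -1.598, where the first is the dim control replicate 1. Control replicates 2 and 3 thus lay above every AIA-cold array. Rspo2, a secreted enhancer of Wnt signalling, read -2.96, -1.94 and -2.12 in AIA-cold and -1.26, -1.53 and -1.25 in AIA-hot (difference -0.99 ± 0.22, adjusted p = 0.433). Ptk7, a receptor-like pseudokinase of Wnt signalling, read -2.75, -2.90 and -2.20 in AIA-cold and -1.20, -1.18 and -1.75 in AIA-hot (difference -1.24 ± 0.23, adjusted p = 0.256). Chl1, an adhesion molecule of nerve cells, read -2.995, -3.05 and -2.47 in AIA-cold and -1.43, -1.03 and -1.87 in AIA-hot (difference -1.40 ± 0.24, adjusted p = 0.214). Zfp185 read -4.94, -5.35 and -3.82 in AIA-cold and -2.44, -2.71 and -2.37 in AIA-hot (difference -2.19 ± 0.37, adjusted p = 0.212), with 1 of 3 AIA-cold arrays above background, and was called without AIA-cold replicate 3 (adjusted p = 0.0276). The differences of the other 7, which were the centromere gene Cenpm, the xylulose reductase gene Dcxr, the choline kinase gene Chka, C9h2orf69, the sulfatase gene Arsi, the semaphorin gene Sema3f and the flotillin gene Flot1, ran from -1.53 to -0.40 with adjusted p of 0.313 to 0.537.

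Interferon response genes were lower on the AIA-cold arrays as a group, although none passed the test alone. All 27 measured members of the type I interferon list, of 35 listed, had lower means in AIA-cold, with a median difference of -0.911, where the median over all genes was 0.005. The adjusted p of the members was 0.651 or more. At an unadjusted p under 0.05, 14 of the 27 were lower, against 2.32% of all genes, and at 8 of them the arrays did not overlap, against 7.07%. Members of a coordinated pathway are not independent of each other, and the list's mean level moved most on 1 array. That mean was 0.354, 0.736 and 0.354 on the AIA-cold arrays and 0.548, 2.545 and 1.337 on AIA-hot replicates 1 to 3. The AIA arrays gave 1.311, 1.015 and 0.643 and the control arrays 0.385, 0.518 and 0.717, so the AIA-cold arrays were close to the control arrays, and AIA-hot replicate 2 was the highest of these 12. Without AIA-hot replicate 2 the median difference was -0.442 with 26 of 27 members lower, and without AIA-hot replicate 3 it was -0.965.

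Stat2, which transmits the signal of the type I interferon receptor, read -2.45, -2.60 and -2.64 on the AIA-cold arrays and -1.90, -0.89 and -2.17 on the AIA-hot arrays, with no overlap (difference -0.91 ± 0.29, adjusted p = 0.651). Dhx58, a regulator of cytosolic RNA sensing, read -2.85, -2.46 and -2.60 in AIA-cold and -2.21, -0.07 and -1.52 in AIA-hot (difference -1.37 ± 0.45, adjusted p = 0.717). Irf7, the factor that amplifies interferon production, read 2.36, 3.52 and 2.77 in AIA-cold and 2.85, 5.63 and 4.02 in AIA-hot (difference -1.29 ± 0.58, adjusted p = 0.906), and the groups overlapped at AIA-cold replicate 2.

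Of the antiviral effectors, Mx1, a GTPase that blocks viral replication, read -3.46, -3.90 and -3.83 on the AIA-cold arrays and -3.33, 0.14 and -2.24 on the AIA-hot arrays (difference -1.92 ± 0.71, adjusted p = 0.798). Isg15, a ubiquitin-like protein joined to other proteins, read 1.39, 2.33 and 1.499 in AIA-cold, against 1.94, 5.59 and 3.58 in AIA-hot (difference -1.96 ± 0.81, adjusted p = 0.848). Both genes were highest on AIA-hot replicate 2 and nearest to the AIA-cold arrays on AIA-hot replicate 1. Eif2ak2, the kinase PKR that halts translation on double-stranded RNA, read 0.20, 0.41 and 0.41 in AIA-cold and 0.47, 2.01 and 0.93 in AIA-hot (difference -0.80 ± 0.32, adjusted p = 0.829). Oas1a, a synthase of the RNase L activator, read 3.31, 3.66 and 3.05 in AIA-cold and 3.21, 5.31 and 4.25 in AIA-hot (difference -0.92 ± 0.51, adjusted p = 0.946).

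**Figure D2:**
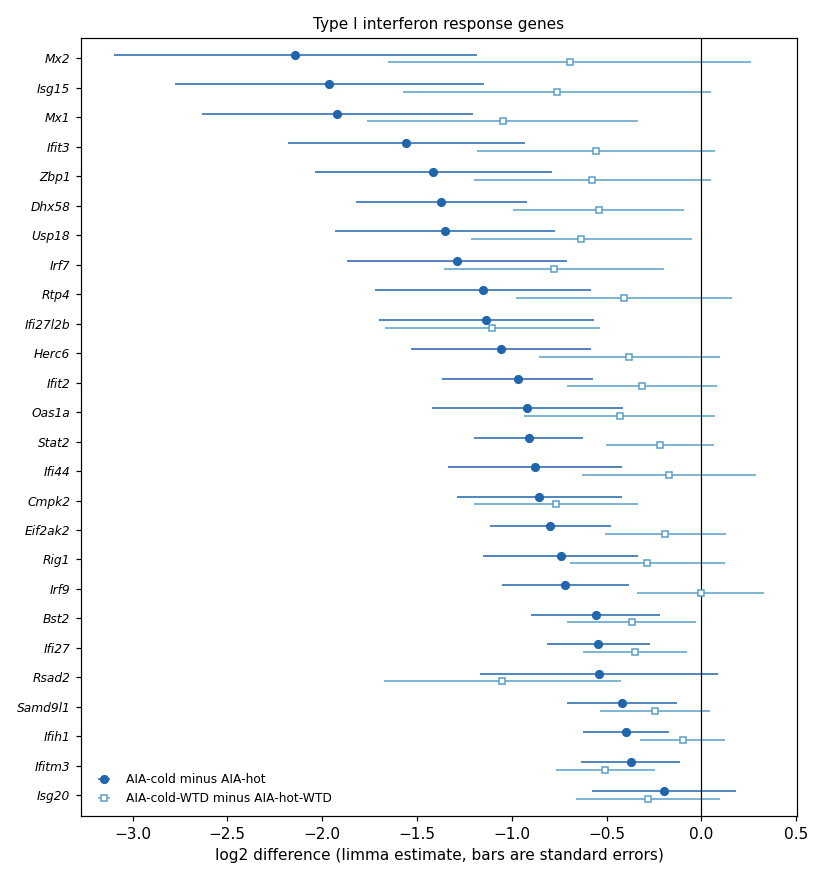
Log2 difference (horizontal axis) of 26 measured type I interferon response genes, AIA-cold minus AIA-hot as filled circles and AIA-cold-WTD minus AIA-hot-WTD as open squares, with standard errors from limma. Every circle lies below 0, the median of the whole list being -0.911 against -0.408 for the WTD pair, and no gene passed the test in either pair.

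Genes induced mainly by interferon gamma and the antigen presentation genes beneath it were lower in AIA-cold too. All 7 measured interferon gamma members, of 14 listed, had lower means (median -0.748). Of the 7, 5 were lower at an unadjusted p under 0.05, against 2.32% of all genes, and 3 had no overlap, against 7.07%. Igtp, a GTPase of defence against intracellular microbes, read -1.97, -1.44 and -1.82 on the AIA-cold arrays and -0.80, -0.01 and -1.04 on the AIA-hot arrays (difference -1.12 ± 0.29, adjusted p = 0.556). The guanylate-binding protein genes Gbp2 and Gbp4 had differences of -0.75 ± 0.32 and -1.18 ± 0.50, and Irgm, another immunity GTPase, -0.85 ± 0.34. Of 13 measured MHC class I presentation genes, 12 were lower (median -0.270). Of the 13, 5 were lower at an unadjusted p under 0.05, against 2.32% of all genes, and 6 had no overlap, against 7.07%. RT1-S3, a class I heavy chain gene, read 3.27, 3.48 and 3.23 in AIA-cold and 3.64, 4.70 and 3.70 in AIA-hot (difference -0.68 ± 0.24, adjusted p = 0.746). Differences were -0.41 ± 0.19 for Psmb8 and -0.37 ± 0.17 for Psmb9, both subunits of the immunoproteasome, and -0.64 ± 0.29 for Tap1, which carries peptides into the endoplasmic reticulum. The 10 measured MHC class II genes split into 5 higher and 5 lower (median -0.011), but this split depended on single arrays. Without AIA-hot replicate 2, 9 were higher and 1 lower (median 0.379). Without AIA-cold replicate 3 and AIA-hot replicate 3 the median was -0.643. Without AIA-hot replicate 2 the medians were -0.418 for the interferon gamma list and -0.176 for MHC class I.

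The promoters of several of these genes carry the repeat that interferon-activated factors bind, shown here because these members moved in the same direction. The motif GAAANNGAAA was searched on both strands in the 250 bases before the annotated start of each gene (RefSeq, GRCr8), and overlapping matches were allowed. It was present in 902 of 27457 rat promoters (3.29%). Of the 27 type I interferon members, 17 had a promoter in the RefSeq table and 11 of those held a match (64.7%), as did 6 of 7 interferon gamma members (85.7%) and 7 of 12 MHC class I members with a promoter (58.3%). The lists were made of known interferon targets, so this share describes the lists and not the cold and hot models. Each sequence below runs 5′ to 3′ on the gene's own strand and ends at the base before the annotated start, with matches on either strand in capitals. Irf7 is at chr1:205800024-205800273 (minus strand), Oas1a at chr12:41330216-41330465 (plus strand), Eif2ak2 at chr6:21940904-21941153 (plus strand), Igtp at chr10:42874797-42875046 (plus strand) and Tap1 at chr20:4668544-4668793 (minus strand).
Irf7: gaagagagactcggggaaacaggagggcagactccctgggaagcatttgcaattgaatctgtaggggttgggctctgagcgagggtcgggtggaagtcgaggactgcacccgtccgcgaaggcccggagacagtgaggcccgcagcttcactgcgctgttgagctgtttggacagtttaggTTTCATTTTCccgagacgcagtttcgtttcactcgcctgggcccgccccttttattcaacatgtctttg
Oas1a: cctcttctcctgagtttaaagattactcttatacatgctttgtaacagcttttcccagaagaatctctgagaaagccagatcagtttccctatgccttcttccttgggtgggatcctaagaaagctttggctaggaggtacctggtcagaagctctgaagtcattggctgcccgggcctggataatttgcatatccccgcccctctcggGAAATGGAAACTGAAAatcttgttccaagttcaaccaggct
Eif2ak2: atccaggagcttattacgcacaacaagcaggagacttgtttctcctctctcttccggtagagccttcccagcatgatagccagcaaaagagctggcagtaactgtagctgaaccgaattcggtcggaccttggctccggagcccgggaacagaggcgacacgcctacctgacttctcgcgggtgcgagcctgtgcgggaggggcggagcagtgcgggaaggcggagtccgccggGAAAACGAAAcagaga
Igtp: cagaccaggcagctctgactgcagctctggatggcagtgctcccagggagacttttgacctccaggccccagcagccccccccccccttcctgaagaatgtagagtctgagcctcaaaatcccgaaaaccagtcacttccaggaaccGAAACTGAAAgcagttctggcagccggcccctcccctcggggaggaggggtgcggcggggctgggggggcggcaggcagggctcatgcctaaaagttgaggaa
Tap1: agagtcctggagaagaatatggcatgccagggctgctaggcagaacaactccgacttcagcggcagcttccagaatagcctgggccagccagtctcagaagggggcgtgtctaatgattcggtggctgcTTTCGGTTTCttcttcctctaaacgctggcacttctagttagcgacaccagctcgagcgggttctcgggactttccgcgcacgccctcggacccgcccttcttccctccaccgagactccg
Oas1a has 2 overlapping matches, which begin 41 and 35 bases before the start, and the match of Eif2ak2 begins 16 bases before it. The matches of Irf7, Igtp and Tap1 begin 69, 103 and 121 bases before it. Mx1 and Stat2 have no match in this window.

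Genes of fatty acid oxidation were mostly higher in AIA-cold, and genes of fatty acid and triglyceride synthesis were split. Of 19 measured oxidation genes, of 20 listed, 17 had higher means (median 0.383), 2 with an unadjusted p under 0.05 against 3.1% of all genes, and none passed the test. Cpt1a, which lets long-chain fatty acids into mitochondria, read 0.49, 0.56 and 0.65 on the AIA-cold arrays, against -0.15, -0.29 and -0.40 on the AIA-hot arrays. Its groups did not overlap and the difference was 0.85 ± 0.26 (adjusted p = 0.631). Pdk4, a kinase that turns mitochondria away from glucose, read 4.30, 4.13 and 3.32 in AIA-cold and 2.35, 1.63 and 3.50 in AIA-hot (difference 1.42 ± 0.70, adjusted p = 0.929), with overlap at AIA-hot replicate 3. Acadl, an acyl-CoA dehydrogenase, had a difference of 0.65 ± 0.32 (adjusted p = 0.929) with the same overlap.

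In the synthesis list 11 of 19 measured genes were lower and 8 higher (median -0.208). Fasn, the fatty acid synthase, read 3.10, 3.49 and 3.08 on the AIA-cold arrays, against 6.13, 5.31 and 6.84 on the AIA-hot arrays, with means of 7.57 in AIA and 7.45 in control. Its arrays did not overlap, but its levels varied widely within other groups and the difference of -2.87 ± 1.03 did not pass (adjusted p = 0.772). Scd, the desaturase that makes monounsaturated fatty acids, followed the same order: 2.21, 2.19 and 3.76 in AIA-cold, 4.32, 4.43 and 5.33 in AIA-hot, and means of 7.01 in AIA and 6.43 in control (difference -1.97 ± 0.90, adjusted p = 0.906), although another Scd probe gave -0.21. Scd2 read 1.69, 1.36 and 2.60 in AIA-cold and 3.27, 3.03 and 2.30 in AIA-hot (difference -0.99 ± 0.44, adjusted p = 0.906). Lpin1, a phosphatidate phosphatase of triglyceride synthesis, was on the other side, at -0.65, -0.67 and -1.99 in AIA-cold and -2.17, -3.14 and -2.02 in AIA-hot (difference 1.34 ± 0.59, adjusted p = 0.89).

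Fat RNA differed between the arrays beside these results. The mean level of the 17 measured adipocyte genes was 4.276, 4.433 and 3.176 on the AIA-cold arrays and 3.607, 2.617 and 4.643 on the AIA-hot arrays, and 12 of the 17 were higher in AIA-cold (median 0.473). The adiponectin gene Adipoq read 7.80, 8.22 and 6.76 in AIA-cold and 7.06, 6.19 and 8.00 in AIA-hot, and the fatty acid carriers Cd36 and Fabp4 had differences of 1.25 ± 0.66 and 1.02 ± 0.68 with overlapping groups (adjusted p = 0.934 and 0.966). The leptin gene Lep was above background on 0 AIA-cold and 2 AIA-hot arrays. In bulk tissue fewer cells of a type and less RNA per cell cannot be told apart, and the part of fat content in the lipid results was not tested. Without AIA-hot replicate 2, the array lowest in fat RNA, the median was 0.016 for the adipocyte list 0.226 for fatty acid oxidation and -0.548 for synthesis. Without AIA-hot replicate 3, the array highest in fat RNA, the same medians were 0.969, 0.657 and 0.009, so that the synthesis list changed sign.

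**Figure D3:**
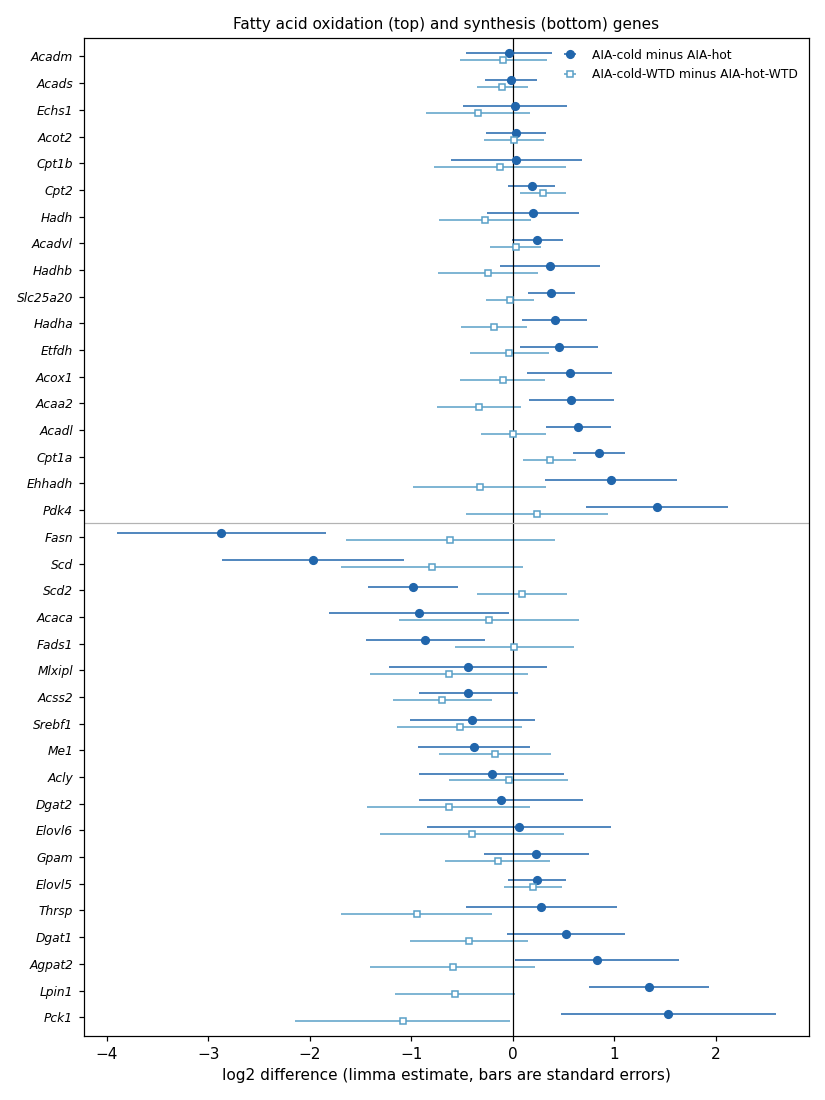
Log2 difference (horizontal axis) of 18 measured fatty acid oxidation genes (upper block) and 19 synthesis genes (lower block), AIA-cold minus AIA-hot as filled circles and AIA-cold-WTD minus AIA-hot-WTD as open squares, with standard errors from limma. Among AIA-cold minus AIA-hot differences, Pdk4 is at 1.42 in the upper block and Fasn at -2.87 in the lower, and no gene of either block passed the test.

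Of the lipid mediator genes, 18 of 24 measured in the prostaglandin and leukotriene list were higher in AIA-cold and 6 lower (median 0.165). Of the 24, 3 were higher at an unadjusted p under 0.05, against 3.1% of all genes, and 5 had no overlap, against 7.92%. In AIA-cold-WTD against AIA-hot-WTD, 5 of the 24 were higher and 19 lower (median -0.336). Alox15b, included in the AIA-cold counts, was the 1 that passed the test, but it passed the filter on dim probes only through AIA-cold. The secreted phospholipases that free arachidonic acid came next. Pla2g5 read -1.23, -1.65 and -2.19 on the AIA-cold arrays, against -5.94, -3.12 and -2.55 on the AIA-hot arrays (difference 2.18 ± 0.72, adjusted p = 0.717). Its signal on AIA-hot replicate 1 was not well above background, so the size of this difference depends on an undetected value. Pla2g2a read 2.24, 2.25 and 1.80 in AIA-cold and 0.31, 1.11 and 1.53 in AIA-hot (difference 1.11 ± 0.42, adjusted p = 0.803). The prostacyclin synthase gene Ptgis and the prostaglandin D synthase gene Hpgds had differences of 0.73 ± 0.43 and 0.59 ± 0.37, both without overlap (adjusted p = 0.952 and 0.966).

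Glucocorticoid-induced genes were higher in AIA-cold at 15 of 21 measured members (median 0.177). Of the 21, 3 were higher at an unadjusted p under 0.05, against 3.1% of all genes, and 3 had no overlap, against 7.92%. Zbtb16, a transcription factor that glucocorticoids induce strongly, read 0.67, 0.35 and 0.10 on the AIA-cold arrays and -1.16, -3.03 and -1.59 on the AIA-hot arrays (difference 2.30 ± 0.45, adjusted p = 0.313). Another probe of Zbtb16 gave 1.07, and the group means were -2.11 in AIA and -3.07 in control. Fkbp5, a co-chaperone of the glucocorticoid receptor, read 4.64, 3.83 and 3.98 in AIA-cold and 2.99, 3.67 and 2.84 in AIA-hot (difference 0.98 ± 0.35, adjusted p = 0.751). Its means were 2.57 in AIA and 1.67 in control. Ddit4, an inhibitor of mTOR signalling, read -1.30, -1.54 and -1.62 in AIA-cold, against -2.96, -2.43 and -1.98 in AIA-hot (difference 0.97 ± 0.39, adjusted p = 0.834). The classical targets Tsc22d3 and Per1 had differences of 0.18 ± 0.19 and -0.07 ± 0.36 with overlapping groups. Without AIA-cold replicate 1 or 3, the list's median was 0.116 or 0.106.

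Genes tied to temperature gave few differences. Of the temperature-gated ion channels of sensory nerves, Trpv1 and Trpm8 gave no signal well above background in AIA-cold or AIA-hot, and Trpa1 did so in 1 AIA-cold array. Ucp1, the uncoupling protein of brown fat, was not above background on any of the 18 arrays. Of 15 listed channels 5 were measured, all with lower means in AIA-cold (median -0.444), or 4 of 5 without AIA-hot replicate 2 (median -0.264). The difference of Trpv4 was -0.48 ± 0.50, that of Trpm4 -0.35 ± 0.19, of Kcnk2 -1.25 ± 0.90, of Ano1 -0.44 ± 0.47 and of Trpv2, named to complete the count, -0.06 ± 0.41. Of the cold-inducible RNA-binding genes, all 4 measured were higher (median 0.266), or 3 of 4 without AIA-hot replicate 2 (median 0.149). Rbm3, a translation factor induced by mild cooling, read 1.74, 1.69 and 1.76 on the AIA-cold arrays and 1.11, 1.25 and 1.36 on the AIA-hot arrays, with no overlap (difference 0.49 ± 0.18, adjusted p = 0.792), and its means were 1.62 in AIA and 1.74 in control. Cirbp, its closest relative in that response, had a difference of 0.28 ± 0.21 with overlap. The 23 heat shock genes had a median of -0.099, or 0.008 without AIA-hot replicate 2, and the chaperone genes Hspa1b and Hsph1 differences of -0.71 ± 0.47 and -0.27 ± 0.38. Among 13 measured genes of brown fat, 11 were higher (median 0.409), or 8 of 13 without AIA-hot replicate 2 (median 0.083). Without AIA-cold replicate 2 the median was 0.151, and without AIA-hot replicate 3 it was 0.802, and the adipocyte list moved with it. The list includes Ucp2, a mitochondrial carrier, at 1.03, 1.14 and 0.90 in AIA-cold and 0.18, 0.22 and 0.23 in AIA-hot (difference 0.81 ± 0.24, adjusted p = 0.611).

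Cytokine and chemokine genes did not move as a block. Il1b, the central cytokine of joint inflammation, read -0.56, -0.53 and -0.62 on the AIA-cold arrays and 0.69, 0.16 and 0.26 on the AIA-hot arrays, without overlap (difference -0.94 ± 0.32, adjusted p = 0.733). Its means were -0.96 in AIA and -1.73 in control, so AIA-cold lay between AIA and AIA-hot. Il6 had a difference of -1.31 ± 0.47 (adjusted p = 0.751) and was above background on 1 AIA-cold and 2 AIA-hot arrays. Of 12 measured inflammatory cytokine genes 8 were lower, and of 11 CXC chemokine genes 8 were lower. Cxcl13, which draws B cells, read 3.95, 3.69 and 3.88 in AIA-cold, against 4.82, 4.51 and 4.61 in AIA-hot (difference -0.81 ± 0.61, adjusted p = 0.983). Cxcl10, an interferon-induced chemokine for T cells, had a difference of -1.52 ± 0.97 (adjusted p = 0.966), and Cxcl9 one of -0.11 ± 0.48. Of 19 CC chemokine genes 11 were higher, among them Ccl6 at 0.79 ± 0.39 and Ccl3 at 0.37 ± 0.24, both without overlap. Ccl5 had a difference of 0.19 ± 0.59. The monocyte chemokine genes Ccl2 and Ccl7 read 1.20, 1.097 and 1.65 and -0.14, -0.42 and 0.44 in AIA-cold. In AIA-hot they read 2.99, 4.07 and 0.64 and 2.41, 3.55 and -0.48, so that replicate 3 was apart from the other AIA-hot arrays. Ccl12 had a difference of -1.92 ± 0.77 (adjusted p = 0.829). The alarmin genes S100a8 and S100a9 of neutrophils had differences of 0.23 ± 1.39 and 0.04 ± 1.29, and among these 6 arrays both were highest on AIA-cold replicate 3.

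Several matrix genes set AIA-hot replicate 3 apart from AIA-hot replicates 1 and 2. The collagenase gene Mmp13 read 2.75, 3.61 and -3.74 on AIA-hot replicates 1 to 3, and -3.70, -3.03 and 2.12 on the AIA-cold arrays (difference -2.41 ± 1.85, adjusted p = 0.986). On the slide of AIA-hot replicate 3, the AIA-hot-WTD arrays read -2.435, 2.105 and -0.255 for Mmp13. The part of slide in this split was not tested. The cartilage and tendon gene Comp read 5.51, 5.11 and 6.21 in AIA-cold and 7.46, 7.83 and 4.61 in AIA-hot, and the aggrecan gene Acan -5.48, -4.97 and -2.15 in AIA-cold and -0.24, 0.13 and -5.05 in AIA-hot. The proteoglycan gene Lum and the tenascin gene Tnc had differences of -1.21 ± 0.88 and -1.31 ± 0.59, with AIA-hot replicate 3 below all other arrays of the 6 for both. Timp1, an inhibitor of matrix proteases, read 3.70, 3.83 and 4.14 in AIA-cold and 5.42, 5.30 and 3.45 in AIA-hot (difference -0.83 ± 0.40, adjusted p = 0.923). The stromelysin gene Mmp3 and the cathepsin K gene Ctsk had differences of -0.45 ± 0.66 and -0.18 ± 0.50. The same array order appeared in immediate early genes, which cells switch on within minutes of a stimulus: 19 of 22 measured were lower in AIA-cold (median -0.294), 3 of them at an unadjusted p under 0.05, against 2.32% of all genes. Junb read -1.11, -1.19 and -0.96 in AIA-cold and 0.05, 0.48 and -1.11 in AIA-hot (difference -0.89 ± 0.36, adjusted p = 0.832). Atf3 had a difference of -1.17 ± 0.51 and Fosl2 one of -0.38 ± 0.17 without overlap. Without AIA-hot replicate 2 the list's median was -0.188.

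**Figure D4:**
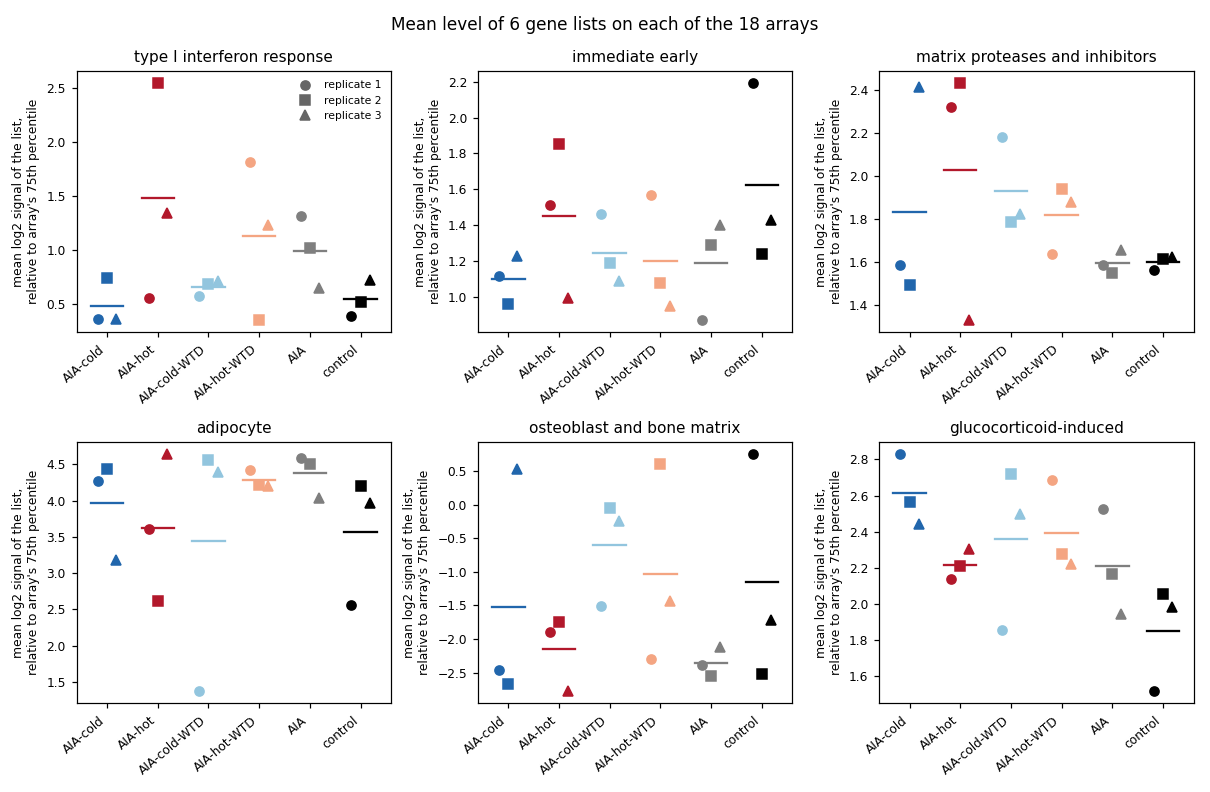
Mean log2 signal (vertical axes, relative to the array's 75th percentile) of 6 gene lists on each of the 18 arrays, by group; symbols are arrays and the line is the group mean. AIA-hot replicate 2 is the highest array for interferon genes at 2.545, AIA-cold replicate 3 carries bone RNA at 0.533 against -2.455 and -2.669, and AIA-hot replicate 3 stands with the AIA-cold arrays for immediate early genes.

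The immune and stromal cell markers gave no difference past the test. Of 20 macrophage genes 16 were higher in AIA-cold (median 0.139, or -0.032 without AIA-cold replicate 3 and AIA-hot replicate 3), with Cd163, a scavenger receptor of resident macrophages, at 0.45 ± 0.28 and no overlap. Of 17 T and NK cell genes 11 were lower (median -0.318, or -0.032 without AIA-cold replicate 3). Cd8a, a coreceptor of cytotoxic T cells, read -4.63, -3.89 and -4.27 on the AIA-cold arrays and -2.15, -2.71 and -3.34 on the AIA-hot arrays (difference -1.53 ± 0.39, adjusted p = 0.556), with 2 of 3 AIA-cold arrays above background, and the T cell receptor subunit Cd3g had a difference of -1.08 ± 0.75. The mast cell protease genes Cma1 and Tpsab1 went opposite ways, at 0.47 ± 0.24 and -0.28 ± 0.22, both without overlap. Omd, a proteoglycan gene of bone, read 3.54, 3.23 and 3.13 in AIA-cold and 1.80, 1.62 and 2.64 in AIA-hot (difference 1.28 ± 0.48, adjusted p = 0.803). The muscle gene Ckm varied from -3.44 to 0.28 on the AIA-cold arrays and from -3.92 to 0.75 on the AIA-hot arrays. Of 17 glycolysis genes 15 were lower (median -0.206), 5 of them without overlap against 7.07% of all genes, such as Ldha, lactate dehydrogenase, at -0.51 ± 0.25. Pkm, pyruvate kinase, had a difference of -0.50 ± 0.23 with overlap. The other 2 glycolysis genes were higher, and the differences of the list ran from -0.51 to 1.59, so its largest difference was on the higher side. Of 16 measured clock genes 7 were higher and 9 lower (median -0.019). Only 1 was lower at an unadjusted p under 0.05, with overlap, against 2.32% of all genes. On each side 1 had no overlap, against 7.92% of all genes on the higher side and 7.07% on the lower. These were Nr1d1, a repressor, at 0.68 ± 0.48 and Cry1 at -0.54 ± 0.35, and Dbp, an output gene, had a difference of -0.10 ± 0.34.

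The same contrast in rats given WTD used other arrays, 3 AIA-cold-WTD and 3 AIA-hot-WTD. The array titles carry letter codes that differ within these groups. They are G, Z and Z for AIA-cold-WTD replicates 1 to 3, and D, G and Z for AIA-hot-WTD replicates 1 to 3. What the letters stand for was not resolved here, so the 3 arrays of a WTD group may not share 1 treatment. The spread between them also enters the shared fit. None of 23608 genes was called (0%, smallest adjusted p = 0.622), and 822 had an unadjusted p under 0.05. The test of whether the cold and hot difference itself differed with WTD called 0 of 23607 genes (973 with an unadjusted p under 0.05). Its smallest adjusted p was 0.0700, that of Alox15b, for which AIA-hot, AIA-cold-WTD and AIA-hot-WTD had no array above background, so that the size of this difference was not measured. The difference in the WTD pair was 0.40 for Zim1, 0.17 for Zbtb16, -0.20 for Fgf7 and 0.81 for Zfp185. All 27 type I interferon members again had lower means in the cold group, with a median of -0.408. The list's means were 0.573, 0.682 and 0.713 on the AIA-cold-WTD arrays and 1.81, 0.346 and 1.231 on the AIA-hot-WTD arrays, and the groups overlapped. Medians in the WTD pair were -0.093 for fatty acid oxidation and -0.886 for adipocyte genes, where AIA-cold-WTD replicate 1 stood apart with an adipocyte mean of 1.368 against 4.562 and 4.391 on the other AIA-cold-WTD arrays.

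**Figure D5:**
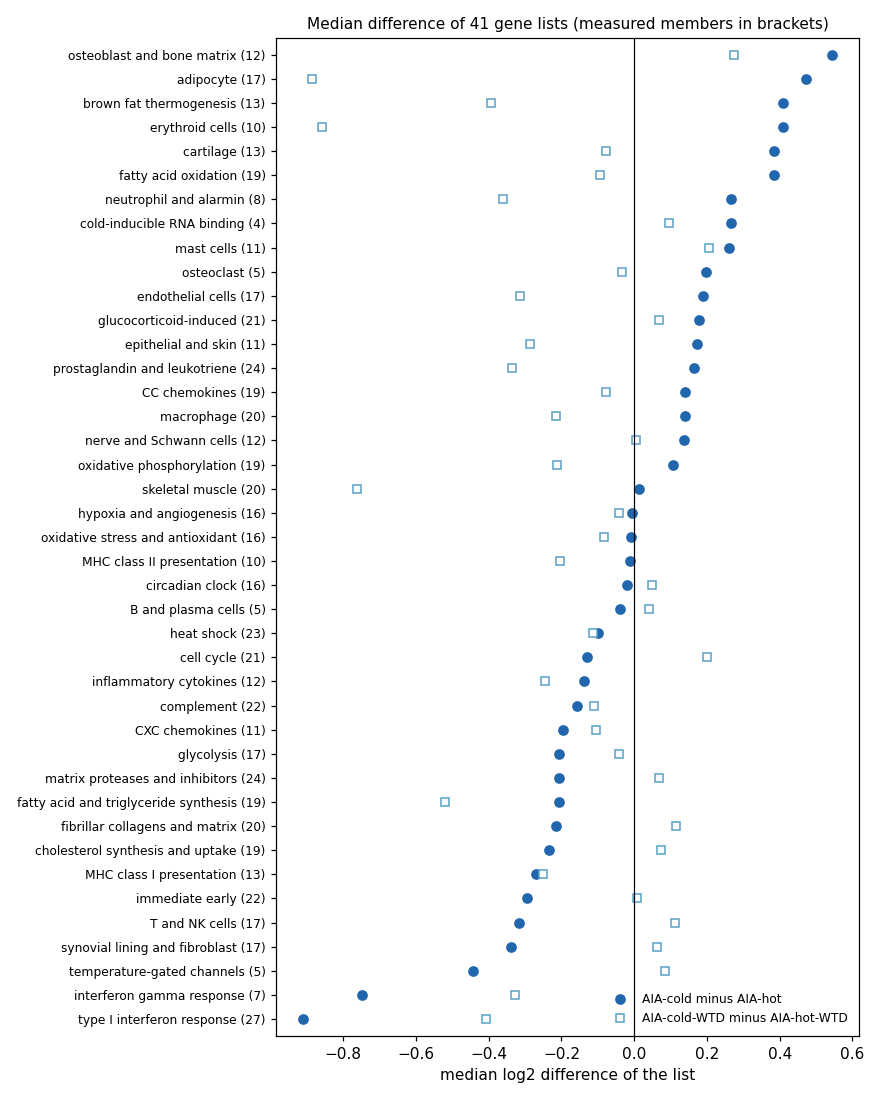
Median log2 difference (horizontal axis) of the measured members of 41 gene lists, AIA-cold minus AIA-hot as filled circles and AIA-cold-WTD minus AIA-hot-WTD as open squares. The interferon lists are lowest at -0.911 and -0.748 for AIA-cold minus AIA-hot, against -0.408 and -0.328 for the WTD pair, and adipocyte genes are at 0.473 against -0.886.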

How the data were processed

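RNA of knee synovium was measured on 18 one-colour (Cy3) Agilent rat arrays, 3 in each of 6 labelled groups. The treatment notes number 10 groups, and how the WTD arrays fall among them was not resolved here. The authors deposited spot intensities as written by the scanner software (Feature Extraction 10.7, per the submitters' processing notes), background-subtracted on each array per the file headers and not normalized between arrays. The authors' deposited series table was taken as log2 values (column medians 5.405 to 5.426, correlation with log2 intensity 0.9887 to 0.9999). Its scale and centring are not given in the sources used here, and it served as an alternative.

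The 75th percentile of each array's gene probe spots, control spots left out, was subtracted from its log2 intensities. Spots flagged as outliers were then removed and repeated spots averaged. A probe was kept if some group had it well above background in all 3 arrays, and the brightest kept probe stood for a gene. RefSeq (GRCr8) named 18028 probes through an accession, 3168 through a symbol and 400 through a synonym; 19416 kept the file's name. Probe positions are in rn4. All 18 arrays were fitted with limma 3.58.1 (R 4.3.3; 12 residual and 2.28 prior degrees of freedom), with Benjamini-Hochberg adjustment over all genes and a threshold of 0.05. Where no array of a group measured a gene, "at least" folds set the bright mean against each dim array's detection limit, or against the gene's own signal where that was higher. The number of arrays limits the precision. The fit was tested on simulated data.

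The comparison, lists and tests were chosen with earlier results of these data known. Lists were described by counts and medians, with no test. Named genes were those called, the 12 higher and 12 lower with the smallest p and an informative symbol, up to 4 per list by smallest p, and a set of inflammatory, interferon, glucocorticoid, temperature and cell marker genes. Replicate numbers follow accession order and pair nothing. Alternatives were quantile normalization, normexp (offset 50), the series table, only the 6 arrays, the slide as a random block, no filter, a stricter filter, the mean of a gene's probes, a trended robust prior, array weights and each array left out. Leaving out control 1, or AIA-cold 3 with AIA-hot 3, was added after the data were seen. A few genes that the naming rule covers are not reported here.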

Additional observations from a re-analysis of the deposited data

How the results depend on the processing

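The 2 genes called in AIA-cold against AIA-hot were the same with quantile normalization, in the series table and with the mean of a gene's probes. The count was 0 with normexp, with only the 6 arrays, with the slide as a random block (consensus correlation 0.159), with no filter and with the trended robust prior, and 1 (Zim1) for probes above background on all 6 arrays. Array weights gave 3955, 1903 higher and 2052 lower, with weights from 0.087 on control 1 to 5.804 on AIA-cold-WTD 2. Leaving out each AIA-cold or AIA-hot replicate gave 0 to 2. The calls were Alox15b and Veph1 without AIA-cold replicate 1, Zfp185 and Zim1 without AIA-cold replicate 3, and Slc27a2 and Crispld2 without AIA-hot replicate 3; Veph1 and Crispld2 were named after these values were seen. Leaving out AIA-cold replicate 3 and AIA-hot replicate 3 together gave 10, 5 higher and 5 lower, and leaving out control replicate 1 gave 5. The WTD pair was counted with quantile normalization, normexp, the series table, the slide block and no filter, and without control replicate 1. It gave 0 in each, and its count under the other alternatives is not reported here. The difference between the differences gave 3 with quantile normalization, 3 in the series table, 2 without control replicate 1 and 2 without AIA-cold replicate 1 (Alox15b and Veph1), and 0 with normexp, the slide block or no filter. For Alox15b and, without AIA-hot replicate 3, Slc27a2, these calls set AIA-cold against signals not above background. The causes were not tested.

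No paired analysis was possible because the replicate numbers are only accession order. Of the named genes' values under alternatives, 1763 kept direction and side of the threshold, 76 gained a call, 21 lost one and 34 reversed. Reversed with array weights were Ano1 0.14, Ckm 0.091, Per1 0.253, S100a8 -0.03 and S100a9 -0.162, and without AIA-cold replicate 3 and AIA-hot replicate 3 Ano1 0.081, S100a8 -0.954, S100a9 -0.869, Col2a1 -0.499, Bglap -0.838 and Ckm 1.611. The genes that reversed in some setting spanned, with replicates left out, Ano1 -0.797 to 0.081, Bglap -0.838 to 3.53, Ccl5 -0.539 to 1.088, Ckm -1.709 to 1.611, Col2a1 -0.499 to 2.731, Ctsk -1.077 to 0.147, Cxcl9 -0.278 to 0.03, Dbp -0.233 to 0.126, Mmp3 -1.899 to 0.067, Per1 -0.316 to 0.237, S100a8 -0.954 to 0.87, S100a9 -0.869 to 0.565 and Trpv2 -0.7 to 0.19. List medians kept their sign under all 18 alternatives for both interferon lists, MHC class I, fatty acid oxidation, immediate early, glucocorticoid-induced and glycolysis genes. So did those of the CXC chemokine, mast cell, complement, synovial lining, endothelial, adipocyte and brown fat lists. The same held for the temperature-gated channel, cold-inducible RNA-binding, cholesterol, prostaglandin and leukotriene, epithelial and nerve lists, so a kept sign does not single out a list. Over all lists, 33 values moved by more than the spread between arrays. Dim genes such as Alox15b are limited by signal over background.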

Other observations

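Erythroid genes were higher in AIA-cold at 10 of 10 measured members (median 0.408, no adjusted p under 0.994) and lower at 10 of 10 in the AIA-cold-WTD against AIA-hot-WTD pair (median -0.858). The mean level of the list was 0.158, 1.978 and 1.291 on the AIA-cold arrays and 0.667, -0.235 and 1.744 on the AIA-hot arrays, so the groups overlapped, and the median was -0.054 without AIA-hot replicate 2. Endothelial genes were higher at 13 of 17 in AIA-cold (median 0.190), or 9 of 17 without AIA-hot replicate 2 (median 0.043), and lower at 15 of 17 in the WTD pair (median -0.313). Genes of oxidative phosphorylation were higher at 14 of 19 (median 0.106, or -0.078 without AIA-hot replicate 2) and lower at 18 of 19 in the WTD pair (median -0.211). None of these genes passed the test.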
